A study of Mus musculus with 24 samples.

Results

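Uchl1, Gabarapl1, Aff1, Rimklb and Glrx2 are 5 genes whose level or whose response to doxycycline (DOX) was different in mouse embryonic stem cell libraries labelled TRIM24-KO. They were chosen by those measured values, so their differences between libraries labelled TRIM24-KO and WT libraries are given as a description, without a test. All 5 were found among the 55487 genes of the deposited tables, and all 5 passed the filter on low counts that left 18079 genes in the pLV2 libraries and 18060 genes in the other libraries.

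All 24 libraries are of KH2 cells, a mouse embryonic stem cell line, and every title names TRE_DUX, a DUX transgene behind a promoter that DOX switches on. The libraries form 12 groups of 2. WT and DUXBL-KO form 1 set of 8 libraries. The second set, of 16 libraries, carries pLV2 in its labels and holds 2 WT lines, called line 1 and line 2 here, and the lines labelled TRIM24-KO and TRIM33-KO, and in both sets each genotype was sequenced without DOX and with DOX for 16 h. What pLV2 is, whether a knockout line is 1 clone, which WT line each knockout came from and whether replicates came from separate cultures are not given in the sources used here, so each WT pLV2 line was compared apart and p-values measure only the spread between these samples. Groups were taken from the titles, and in 8 pLV2 libraries the treatment tag says otherwise. Counts of Dux (Duxf3 in the annotation) followed the titles: 20 to 110 counts in every library with DOX in its title and 0 to 2 counts in every other.

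UCHL1 is a ubiquitin hydrolase, abundant in neurons, that frees ubiquitin from small adducts. GABARAPL1 belongs to the ATG8 family, small ubiquitin-like proteins that are joined to lipid on the autophagosome membrane. AFF1 is a scaffold of the super elongation complex, which releases paused RNA polymerase II. RIMKLB is a ligase that joins glutamate to N-acetylaspartate, and GLRX2 is a glutaredoxin that reduces disulfides with glutathione, best known from mitochondria. TRIM24 and TRIM33 are related co-regulators that read histone tails through a PHD finger and bromodomain. DUX is a homeodomain transcription factor of early embryonic genome activation, and in embryonic stem cells it drives a 2-cell-like state, named after the cleavage stage whose genes it turns on.

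Gene counts of the targeted gene did not set the TRIM24-KO label below both WT pLV2 lines. Levels are given in CPM, counts scaled to a common library size with scaling factors computed in each set apart. Levels across the sets are therefore compared less surely than within a set. Trim24 stood at 137 and 123 CPM in the libraries labelled TRIM24-KO without DOX, at 100.4 and 94.7 CPM in WT pLV2 line 1 and at 196 and 166 CPM in line 2. The knockout label therefore lay above 1 WT line and below the other. A gene count cannot show a small deletion or the loss of protein, so these libraries are called by their label throughout. Trim33, by contrast, stood at 20.3 and 21.4 CPM in TRIM33-KO without DOX and at 115.6 to 140.1 CPM in the 4 WT pLV2 libraries without DOX.

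Gene counts ran from 11784696 to 19136869 per library. A single gene, CT010467.1, took 30.4% of the gene counts of replicate 2 labelled TRIM24-KO with DOX and 12.8% of those of TRIM33-KO with DOX replicate 2, against at most 1.3% in any other library, so the members' log2 differences under the label with DOX are also given without its library, and the 2 calls of members that change without the TRIM33-KO library, both of Uchl1, are given beside its values. All 12 pluripotency genes examined had at least 1 CPM in every group. Of the markers of feeder fibroblasts, on which these cells may have been grown per the labels' protocols, the summed level was 14.4 to 48.2 CPM across all libraries, and Col3a1, Col6a1, Postn, Lum, Dcn and Prrx1 were under 1 CPM in every group.

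Uchl1 (ENSMUSG00000029223.12) lies on the plus strand at chr5:66676091-66687234 of GRCm38, Aff1 (ENSMUSG00000029313.18) on the plus strand at chr5:103692374-103855322, Gabarapl1 (ENSMUSG00000030161.8) on the plus strand at chr6:129533160-129542346, Rimklb (ENSMUSG00000040649.15) on the minus strand at chr6:122447296-122498761 and Glrx2 (ENSMUSG00000018196.18) on the plus strand at chr1:143716338-143749676. The antisense gene Uchl1os overlaps the start of Uchl1 and had a median of 0.248 CPM over the 24 libraries, and Rimklb holds the opposite-strand pseudogene Gm8430, at a median of 1.28 CPM. Gabarapl1 overlaps 1700101I11Rik, at a median of 0 CPM, and Gm44243, at 0.301 CPM. The counting setting for strand is not given in the sources used here, so reads of these overlaps cannot be told apart, but all 4 stand far below their partners. The gene counts pool all transcripts of a gene, including upstream starts of Aff1, Rimklb and Glrx2.

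The 3 members whose 4 libraries under the label all lay below the 20 others are shown by their promoter bases, to set their composition side by side, each stretch ending at the base before the first start of an annotated protein-coding transcript. The bases are from RefSeq on GRCm38.p6, plus strand, and capitals mark GC boxes (GGGCGG, read on both strands). The windows are chr5:66675871-66676090 for Uchl1, chr6:129532942-129533159 for Gabarapl1 and chr5:103753912-103754161 for Aff1.
Uchl1: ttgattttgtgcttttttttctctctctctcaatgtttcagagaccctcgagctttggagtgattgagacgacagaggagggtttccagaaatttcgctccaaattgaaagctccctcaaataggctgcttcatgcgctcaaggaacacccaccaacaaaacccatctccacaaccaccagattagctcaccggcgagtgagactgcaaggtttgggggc
Gabarapl1: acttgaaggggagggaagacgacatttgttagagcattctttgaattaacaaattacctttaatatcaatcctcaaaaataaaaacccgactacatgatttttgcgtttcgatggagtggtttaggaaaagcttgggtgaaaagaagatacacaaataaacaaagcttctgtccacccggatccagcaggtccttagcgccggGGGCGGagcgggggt
Aff1: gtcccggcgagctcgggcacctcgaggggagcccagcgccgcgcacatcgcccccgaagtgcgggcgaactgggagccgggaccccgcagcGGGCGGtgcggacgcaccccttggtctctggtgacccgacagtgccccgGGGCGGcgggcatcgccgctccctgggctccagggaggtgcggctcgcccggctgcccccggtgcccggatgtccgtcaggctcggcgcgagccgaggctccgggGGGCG

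The 3 stretches differ in composition. GC content was 48.2% in the 220 bases of Uchl1, 43.6% in the 218 bases of Gabarapl1 and 78.8% in the 250 bases of Aff1, against a median of 52.7% over all RefSeq promoter windows, which run from 250 bases before to 50 bases after a start. In these full windows the GC box was found 0 times for Uchl1, 2 times for Gabarapl1 and 3 times in each of the 2 Aff1 windows. The second Gabarapl1 match lies past the printed stretch, and the last Aff1 match runs past its end. Of the 32851 windows, 35.7% hold a GC box. The DUX motif was found in no window of any member, Rimklb and Glrx2 included, and in 0.207% of all windows. Of 4 windows at Glrx2, 1 holds the FOXO motif GTAAACA and the half-site AGGTCA, and another the E-box CACGTG, letters present in 3.65%, 16.3% and 7.15% of all windows. A match is a description of letters and not of binding.

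Uchl1 was low in every library labelled TRIM24-KO. Its level was 18.7 and 19.6 CPM in the libraries labelled TRIM24-KO without DOX. In WT pLV2 line 1 it was 76.7 and 69.9 CPM, and in line 2 it was 76.4 and 74.5 CPM. The label was 3.82-fold lower than line 1, a log2 difference of -1.94 ± 0.09 (SE), and 3.94-fold lower than line 2, at -1.98 ± 0.09. In bulk RNA, fewer cells that hold a transcript and less of it per cell cannot be told apart. With DOX the label stood at 29.4 and 29.5 CPM, against 80.7 and 78.8 CPM in line 1 and 78.8 and 73.6 CPM in line 2, a difference of -1.44 ± 0.09 and -1.37 ± 0.09. Without the library rich in CT010467.1 these became -1.41 and -1.36. All 4 libraries labelled TRIM24-KO lay below all 20 others, whose lowest, 37.9 CPM, was a DUXBL-KO library without DOX. The share of all genes with this pattern was not counted, so nothing is read from it.

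Gabarapl1 was low in the same libraries. It stood at 6.68 and 6.74 CPM under the label without DOX, at 25.3 and 26.5 CPM in line 1 and at 36.5 and 40.3 CPM in line 2. The log2 difference was -1.95 ± 0.12 from line 1 and -2.51 ± 0.11 from line 2, or 3.86-fold and 5.71-fold. With DOX the label had 8.79 and 8.14 CPM, line 1 had 25.6 and 25.2 CPM and line 2 had 31.3 and 33.8 CPM. These are differences of -1.57 ± 0.12 and -1.93 ± 0.12, and of -1.5 and -1.88 without the doubted library. The gap to line 2 was wider than that to line 1, and the WT lines themselves differed in Gabarapl1 without DOX (line 2 higher by 0.57 ± 0.10 on the log2 scale). Gabarapl1 was also low in the WT and DUXBL-KO set, at 9.14 to 21.4 CPM over 8 libraries. The highest labelled library, at 8.79 CPM, was close to the lowest of them. CPM were scaled in each set apart, so the order of these libraries across the sets is uncertain.

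Aff1 was at 53.5 and 67.2 CPM under the label without DOX. Line 1 had 192 and 199 CPM and line 2 had 183 and 176 CPM. The differences were -1.70 ± 0.09 and -1.57 ± 0.09 on the log2 scale, or 3.24-fold and 2.97-fold. With DOX the label had 51.2 and 48.0 CPM, line 1 had 163 and 157 CPM, and line 2 had 128 and 141 CPM, with differences of -1.69 ± 0.09 and -1.44 ± 0.09, or -1.62 and -1.39 without the doubted library. As for Uchl1, the 4 labelled libraries (48.0 to 67.2 CPM) did not overlap the 20 others (127 to 279 CPM), a pattern whose share over all genes was not counted.

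Rimklb was lower under the label without DOX and nearer to WT with it. Without DOX it stood at 10.6 and 13.1 CPM under the label, at 32.3 and 32.7 CPM in line 1 and at 43.7 and 41.0 CPM in line 2. The log2 differences were -1.45 ± 0.11 and -1.83 ± 0.11. With DOX it reached 90.1 and 97.6 CPM under the label, 124 and 138 CPM in line 1 and 145 and 145 CPM in line 2, and the differences shrank to -0.48 ± 0.09 and -0.63 ± 0.09, or -0.51 and -0.68 without the doubted library. The DOX effect, the log2 level with DOX minus that without, was 2.98 ± 0.10 under the label, or 2.93 without that library. That exceeded the effect in line 1 by 0.97 ± 0.14 and in line 2 by 1.20 ± 0.14, and by 0.89 and 1.08 without it. The level with DOX under the label was still below that of the 6 other pLV2 libraries with DOX, which ran from 123.5 to 208.5 CPM.

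Glrx2 differed only with DOX, and upward. Without DOX its level was 11.9 to 15.9 CPM in all 12 libraries, with 13.7 and 13.01 CPM under the label, 11.9 and 11.9 CPM in line 1 and 15.6 and 12.8 CPM in line 2, and log2 differences of 0.17 ± 0.13 and -0.10 ± 0.13. With DOX it stood at 157 and 153 CPM under the label, against 65.0 and 80.2 CPM in line 1 and 66.2 and 71.5 CPM in line 2. The label was then 2.13-fold higher than line 1 (1.09 ± 0.10) and 2.25-fold higher than line 2 (1.17 ± 0.10), or 1.14 and 1.20 on the log2 scale without the doubted library. Its DOX effect of 3.54 ± 0.11 exceeded that of line 1 by 0.92 ± 0.16 and that of line 2 by 1.27 ± 0.16, and without that library these were 3.56, 0.92 and 1.22. No other library with DOX came above 100.1 CPM.

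**Figure D1:**
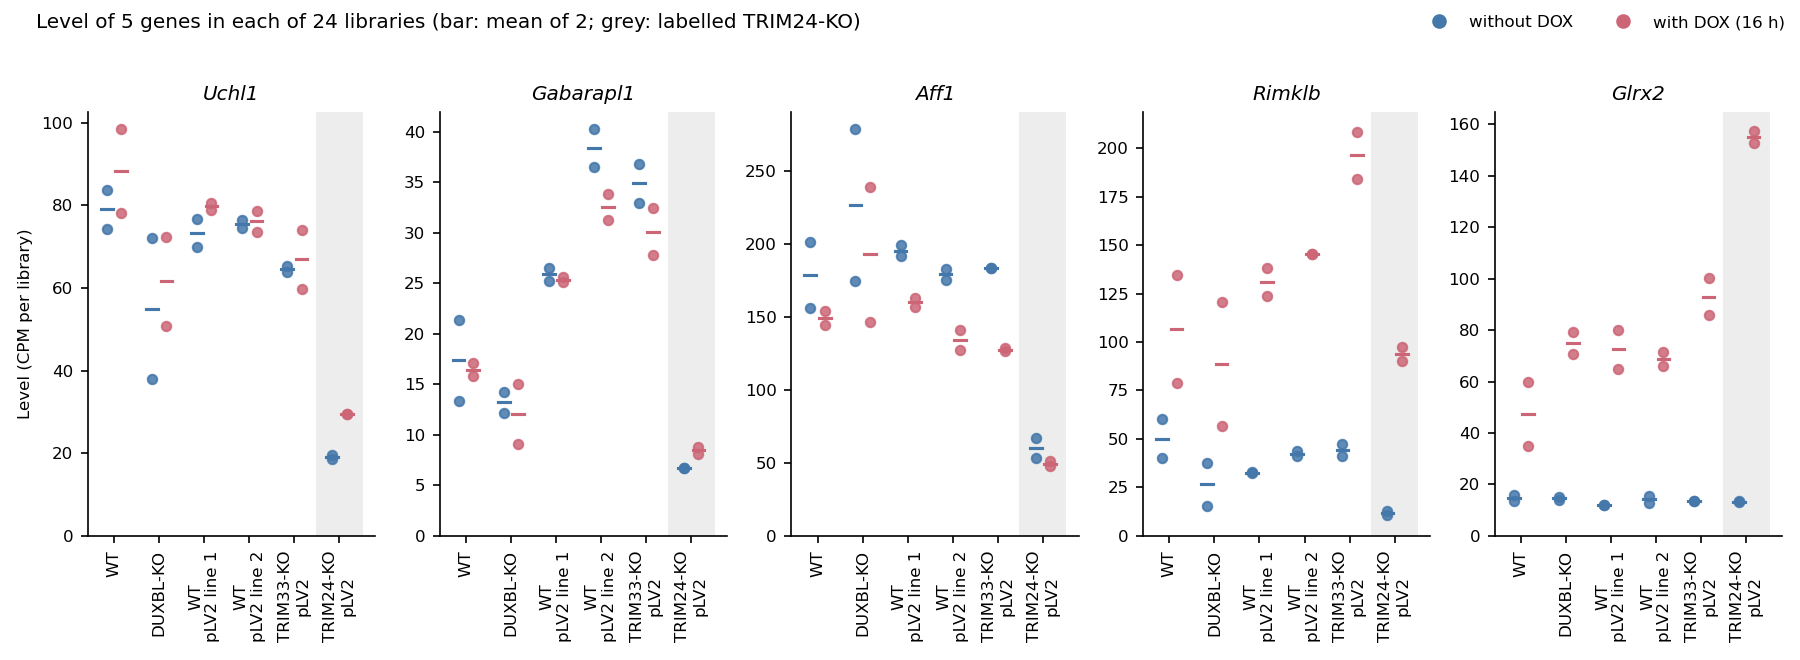
Level of each member in CPM (y axis, from 0) in each of 24 libraries, grouped by genotype (x axis), with points for libraries, bars for the mean of 2, blue without DOX and red with DOX. The grey column holds the libraries labelled TRIM24-KO: Uchl1, Gabarapl1 and Aff1 lie below all others there, and Glrx2 with DOX lies above all others at 153 to 157 CPM. CPM were scaled in the pLV2 set and in the WT and DUXBL-KO set apart.

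Counted by libraries that do not overlap, 4 of 5 members lay below both WT pLV2 lines without DOX and the same 4 with DOX, and Glrx2 lay above both with DOX. By the same count over all genes tested, 22.9% lay below and 21.3% above all 4 WT pLV2 libraries without DOX, and 19% below and 21.9% above with DOX. By the test, 10.6% were called lower than both lines and 11.1% higher without DOX, and 8.1% lower and 11.9% higher with DOX (edgeR quasi-likelihood, adjusted p under 0.05 against each line). A larger DOX effect under the label was called for 0.188% of genes against line 1 and 0.249% against line 2. Of all genes called for this effect, 34 were higher and 2 lower against line 1, which became 28 and 4 with median-of-ratios factors, 25 and 5 without CT010467.1 in the scaling and 61 and 16 with DESeq2. Against line 2, 45 higher and 20 lower became 25 and 27 with median-of-ratios factors, 35 and 26 without CT010467.1 and 57 and 50 with DESeq2. Because these contrasts chose the members, nothing is read from the members' place among them.

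Genes just beside the members in these contrasts, set against the mean of both lines over genes with a mean of at least 50 counts and ordered by p-value, are given only to show the choice. Lower without DOX, with no overlap between libraries, Uchl1 was at -1.96 ± 0.08, Gabarapl1 at -2.23 ± 0.10 and Aff1 at -1.63 ± 0.08, and beside them stood Ipo5, an importin, at -1.11 ± 0.05 and Slfn9 at -4.03 ± 0.19. For a larger DOX effect, Rimklb was at 1.09 ± 0.12 and Glrx2 at 1.10 ± 0.14, and beside them stood Dhcr7, an enzyme of the last step of cholesterol synthesis, at 1.25 ± 0.12, the adaptor Grb2 at 0.65 ± 0.08 and the axon guidance receptor Robo1 at 1.26 ± 0.16.

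Per kilobase of annotated exon, the order of the members changed with DOX in line 1 and under the label. The exon length joins all annotated transcripts of a gene, retained-intron forms among them, so levels of different genes are compared only roughly. It was 1632 bases for Uchl1 and 8772 bases for Glrx2, and which transcripts were expressed was not tested. In line 1 without DOX the means were 44.9 CPM per kb for Uchl1, 20.7 for Aff1, 12.9 for Gabarapl1, 5.78 for Rimklb and 1.35 for Glrx2. In line 1 with DOX they were 48.9 CPM per kb for Uchl1, 23.3 for Rimklb, 16.9 for Aff1, 12.6 for Gabarapl1 and 8.28 for Glrx2. In libraries labelled TRIM24-KO without DOX they were 11.7 CPM per kb for Uchl1, 6.38 for Aff1, 3.33 for Gabarapl1, 2.11 for Rimklb and 1.52 for Glrx2. In those with DOX they were 18.1 CPM per kb for Uchl1, 17.7 for Glrx2, 16.7 for Rimklb, 5.24 for Aff1 and 4.21 for Gabarapl1. With DOX Rimklb stood above Aff1 and Gabarapl1 in both. By this exon length, Glrx2 was last in line 1 and next to Uchl1 under the label.

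TRIM33-KO libraries, which the choice of members did not use, allow a test. Without DOX, 2 of 5 members were called against line 1, where 40.9% of all genes were called: Gabarapl1 was higher by 0.43 ± 0.10 (adjusted p = 0.0021, edgeR quasi-likelihood with Benjamini-Hochberg adjustment, as for all p-values here) and Rimklb by 0.45 ± 0.09 (adjusted p = 0.0011). That share of members is near the background, and both genes were also higher in line 2 than in line 1. Against line 2, 0 of 5 members were called without DOX, 1 (Uchl1) had an unadjusted p under 0.05, and DESeq2 called 0 as well, where 1.52% of genes were called. For Gabarapl1 the libraries of the 2 groups overlapped, with 36.9 and 32.9 CPM in TRIM33-KO beside 36.5 and 40.3 CPM in line 2.

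With DOX, TRIM33-KO differed from line 1 in 4 of 5 members, where 43.1% of genes were called. Rimklb was higher by 0.59 ± 0.08 (adjusted p = 3.3e-05) and Glrx2 by 0.36 ± 0.10 (adjusted p = 0.0076), while Aff1 was lower by a log2 difference of -0.33 ± 0.08 (adjusted p = 0.0047) and Uchl1 by -0.25 ± 0.08 (adjusted p = 0.025). The Uchl1 call was lost with DESeq2 (adjusted p = 0.16), median-of-ratios factors (0.091) or only the compared groups (0.0503), and without TRIM33-KO with DOX replicate 2 its difference was -0.0901 (adjusted p = 0.44). It was also lost without line 1 replicate 1 (-0.23, adjusted p = 0.11) or replicate 2 (-0.27, adjusted p = 0.066). The Glrx2 call was lost without line 1 with DOX replicate 1 (0.21, adjusted p = 0.15) or TRIM33-KO with DOX replicate 1 (0.24, adjusted p = 0.13).

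Against line 2 with DOX, 2 of 5 members were called, where 3.58% of genes were. Rimklb stood at 208 and 184 CPM in TRIM33-KO and at 145 and 145 CPM in line 2, a log2 difference of 0.44 ± 0.08 (adjusted p = 0.0087). Glrx2 stood at 100.1 and 85.8 CPM, above both line 2 libraries, at 0.44 ± 0.10 (adjusted p = 0.023). Both genes were thus called higher than each WT line in TRIM33-KO with DOX. Both calls against line 2 were lost without TRIM33-KO with DOX replicate 1 (Rimklb 0.34, adjusted p = 0.14, Glrx2 0.32, adjusted p = 0.27). Rimklb was also not called without line 2 with DOX replicate 2 (0.43, adjusted p = 0.078), nor Glrx2 without either line 2 library with DOX (0.38, adjusted p = 0.12, and 0.49, adjusted p = 0.088). These comparisons share the WT libraries with those of the TRIM24-KO label.

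**Figure D2:**
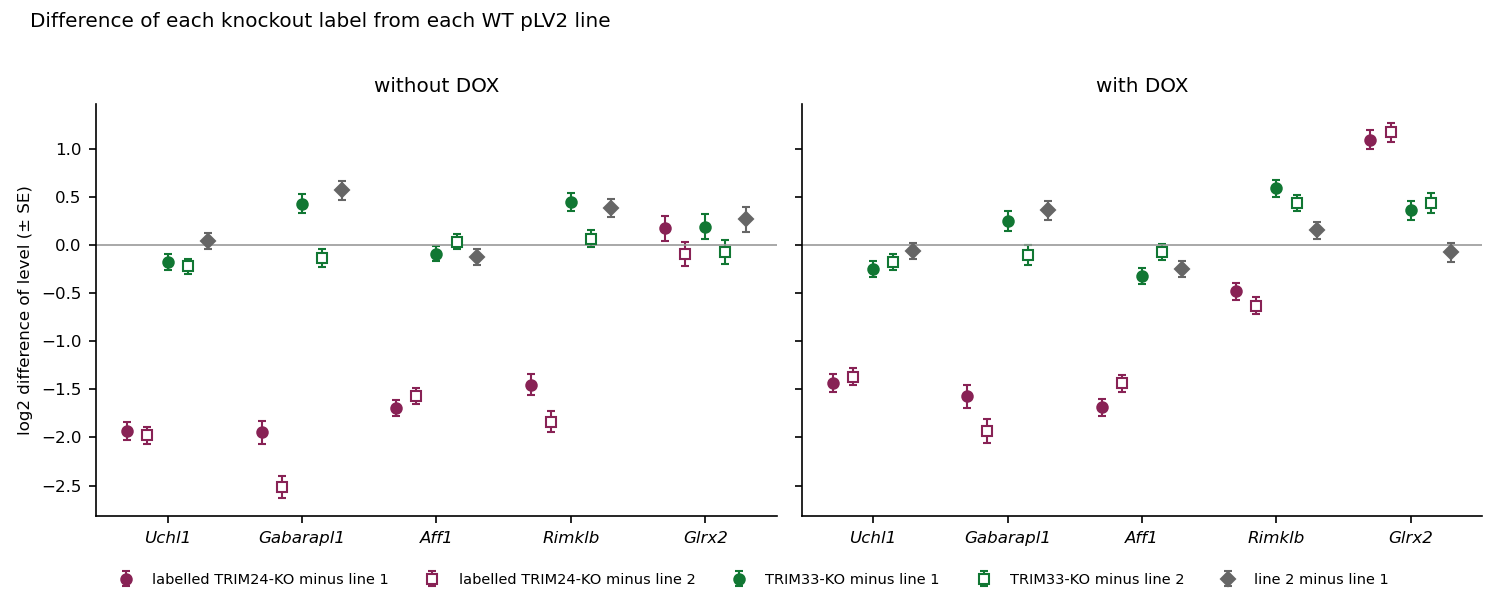
Log2 difference of level with its SE (y axis) for each member (x axis), for libraries labelled TRIM24-KO and for TRIM33-KO against each WT pLV2 line and for line 2 against line 1, without DOX (left) and with DOX (right). The labelled TRIM24-KO points for Uchl1, Gabarapl1 and Aff1 lie between -2.51 and -1.37, and those of TRIM33-KO lie between -0.33 and 0.59 for all members.

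The WT pLV2 lines were not interchangeable. Without DOX, 2 of 5 members were called between them, where 38.3% of genes were: Gabarapl1 was higher in line 2 by 0.57 ± 0.10 (adjusted p = 2.3e-04) and Rimklb by 0.38 ± 0.09 (adjusted p = 0.0042). With DOX, where 40.1% of genes were called, Gabarapl1 was higher in line 2 by 0.36 ± 0.10 (adjusted p = 0.0099) and Aff1 was lower, at -0.25 ± 0.08 (adjusted p = 0.024). Both of these were lost on leaving out some single libraries: Gabarapl1 without replicate 2 of line 1 (0.34, adjusted p = 0.062) or of line 2 (0.30, adjusted p = 0.08), and Aff1 without replicate 1 (-0.23, adjusted p = 0.12) or replicate 2 of line 1 (-0.28, adjusted p = 0.056) or replicate 1 of line 2 (-0.18, adjusted p = 0.2). DESeq2 did not call Aff1 either (adjusted p = 0.06).

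DOX itself, apart from the TRIM24-KO label, raised 2 members and lowered 1 in each pLV2 line. In all, 3 of 5 members were called in line 1, where 16.3% of genes were, 3 of 5 in line 2, where 26.8% were, and 3 of 5 in TRIM33-KO, where 36.5% were. Of the genes called, 47.6% were higher with DOX in line 2 and 45.1% in TRIM33-KO, and 59.6% and 56.7% with median-of-ratios factors. The WT libraries are also the reference side of the DOX-effect comparison that may have chosen Rimklb and Glrx2. Glrx2 rose from 11.9 and 11.9 to 65.0 and 80.2 CPM in line 1, a log2 change of 2.61 ± 0.12 (adjusted p = 3.3e-11). It rose by 2.27 ± 0.11 in line 2 (adjusted p = 4.9e-11) and by 2.78 ± 0.11 in TRIM33-KO (adjusted p = 2.4e-12), where it went from 13.6 and 13.5 to 100.1 and 85.8 CPM. In each of these lines no library with DOX overlapped one without.

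Rimklb rose by 2.01 ± 0.09 in line 1 (adjusted p = 4.2e-11), by 1.78 ± 0.09 in line 2 (adjusted p = 6.0e-11) and by 2.15 ± 0.09 in TRIM33-KO (adjusted p = 3.5e-12). Its level in TRIM33-KO went from 41.4 and 47.2 to 208 and 184 CPM, the highest of any group. Aff1 fell by 0.29 ± 0.08 in line 1 (adjusted p = 0.022), by 0.41 ± 0.08 in line 2 (adjusted p = 0.0012) and by 0.52 ± 0.08 in TRIM33-KO (adjusted p = 1.0e-04). In line 1 that call was lost whichever of the 4 libraries was left out, with adjusted p of 0.07 to 0.24 and values of -0.22 to -0.32. Under the TRIM24-KO label Aff1 went from 53.5 and 67.2 to 51.2 and 48.0 CPM, a log2 change of -0.28 ± 0.09, which was -0.44 without replicate 1 and -0.14 without replicate 2 of the labelled libraries without DOX, and -0.23 without the library rich in CT010467.1.

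Uchl1 and Gabarapl1 were called with DOX in none of the 3 lines. The log2 changes of Uchl1 were 0.12 ± 0.08 in line 1, 0.01 ± 0.08 in line 2 and 0.06 ± 0.08 in TRIM33-KO. A fit of only the compared groups called it in line 1 (0.16, adjusted p = 0.033). Without TRIM33-KO with DOX replicate 2, the second library rich in CT010467.1, Uchl1 was at 0.27 in TRIM33-KO (adjusted p = 0.024), and without replicate 1 it was at -0.11 (adjusted p = 0.39). Those of Gabarapl1 were -0.03 ± 0.10, -0.24 ± 0.10 and -0.21 ± 0.10. Under the TRIM24-KO label they were 0.62 ± 0.10 for Uchl1 and 0.34 ± 0.14 for Gabarapl1, or 0.63 and 0.39 without the doubted library, so the gap to WT was smaller with DOX than without for both.

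The DOX effects of the other pLV2 lines were compared with each other for the 2 rising members. Between line 2 and line 1 the difference was -0.34 ± 0.16 for Glrx2 (adjusted p = 0.65) and -0.23 ± 0.13 for Rimklb (adjusted p = 0.72), and 0 of 5 members were called, with 0 at an unadjusted p under 0.05 and 0 by DESeq2, where 0.238% of genes were called. Between TRIM33-KO and line 1 it was 0.17 ± 0.16 for Glrx2 (adjusted p = 0.71) and 0.14 ± 0.13 for Rimklb (adjusted p = 0.69), again with 0 of 5 called by edgeR, by DESeq2 or at an unadjusted p under 0.05, where 1.61% of genes were called. Between TRIM33-KO and line 2 it was 0.51 ± 0.16 for Glrx2 (adjusted p = 0.92) and 0.37 ± 0.12 for Rimklb (adjusted p = 0.93), both with an unadjusted p under 0.05. There edgeR called 0 of 5 members and 0% of all genes, with 831 genes at an unadjusted p under 0.05, and DESeq2 called 16 genes, none of them a member.

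In the WT and DUXBL-KO set the replicates lay further apart. The common coefficient of variation was 17.8% there and 8.55% in the pLV2 set. Glrx2 rose with DOX in WT, from 13.6 and 15.9 to 59.7 and 34.8 CPM (1.68 ± 0.25, adjusted p = 0.014), and in DUXBL-KO, from 15.1 and 14.0 to 70.8 and 79.1 CPM (2.36 ± 0.25, adjusted p = 0.0026). It was 1 of 5 members called in each, where 2.93% and 4.91% of genes were called. The WT call was lost with only the compared groups in the fit (adjusted p = 0.075) and without either WT library without DOX (1.57, adjusted p = 0.13, and 1.82, adjusted p = 0.095).

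Rimklb went from 60.1 and 40.1 to 135 and 78.7 CPM in WT and from 37.8 and 15.7 to 121 and 56.8 CPM in DUXBL-KO. Its log2 differences with DOX, 1.09 ± 0.51 (adjusted p = 0.52) and 1.73 ± 0.52 (adjusted p = 0.16), did not pass the test in this fit, which has no term for replicate number, although no library with DOX overlapped one without. With a term for replicate number both were called (1.06, adjusted p = 0.0045, and 1.75, adjusted p = 2.5e-04), but what the replicate numbers share is not given. Without a filter on low counts both passed at nearly the same differences, 1.12 and 1.72 (adjusted p = 5.5e-12 and 1.3e-27). Such p-values do not measure the spread between 2 libraries this far apart, so nothing is read from them, and the cause was not tested. DUXBL-KO against WT called 0 of 5 members without DOX and 0 of 5 with DOX, where 0.0388% and 0.072% of genes were called. At an unadjusted p under 0.05 it gave 0 members without DOX and 1 (Glrx2) with DOX, and DESeq2 called 0 in both.

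**Figure D3:**
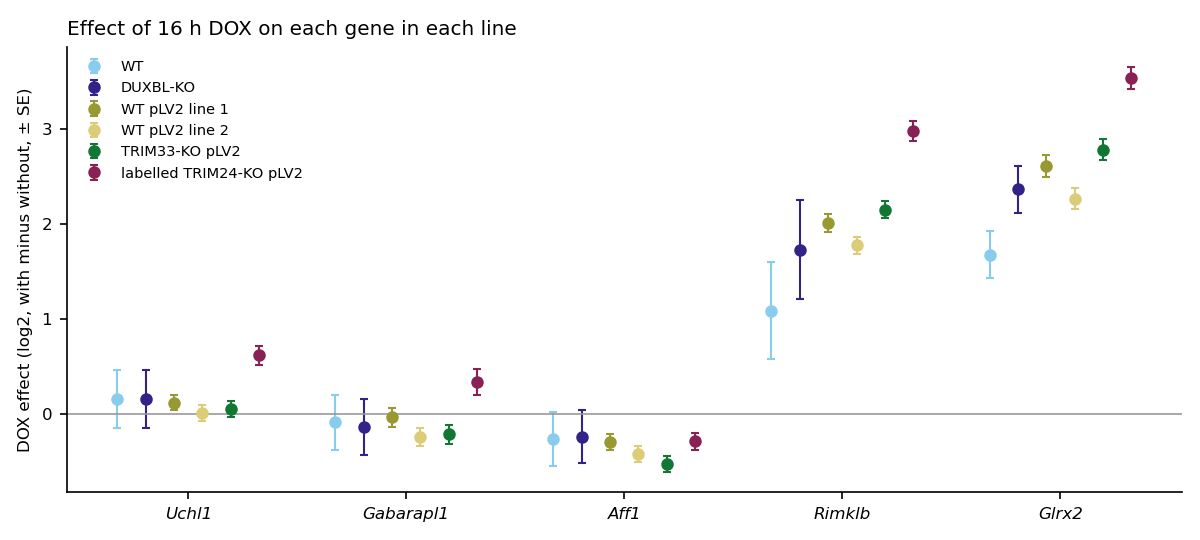
DOX effect as the log2 level with minus without 16 h of DOX, with its SE (y axis), for each member (x axis) in 6 lines (colours). Glrx2 spans 1.68 in WT to 3.54 under the TRIM24-KO label, Rimklb 1.09 to 2.98, and Aff1 lies below 0 in every line.

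The induction of the 2-cell-like programme was not the same in all lines with DOX. The summed level of 8 genes that mark this state, Dux among them, was 1231 to 1499 CPM in line 1, 3384 to 4698 CPM in line 2, 5855 to 6646 CPM in TRIM33-KO, 1254 to 1816 CPM under the TRIM24-KO label, 664 to 1677 CPM in WT and 1210 to 1896 CPM in DUXBL-KO. Without DOX it was 0.243 to 5.03 CPM in all groups. The libraries labelled TRIM24-KO overlapped line 1 in this sum and had the highest Glrx2 of all groups. TRIM33-KO had the highest sum and the highest Rimklb. Dux itself had a mean with DOX of 3.10 CPM under the label, 7.79 CPM in line 1, 4.20 CPM in line 2 and 6.40 CPM in TRIM33-KO. The part of this programme in the DOX effects was not tested.

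Some markers of other cell types differed with the TRIM24-KO label too. The summed level of 9 primitive endoderm markers was 262 to 270 CPM under the label without DOX and 164 to 211 CPM in the 4 WT pLV2 libraries. Of the 9, 6 (Gata4, Gata6, Pdgfra, Dab2, Sox7 and Lama1) were called higher than both lines, as 11.1% of all genes were. Of these, Dab2 was under 1 CPM in line 1 and Gata6 in line 2. Sox17 (0.66 and 1.17) and Col4a1 (-0.25 and 0.38) were not called in 1 direction against both, and Foxa2 was under 1 CPM in every group. In the other set without DOX the same sum was 312.1 to 322 CPM in WT and 253.6 to 298.1 CPM in DUXBL-KO, where Gata4, Gata6, Pdgfra and Dab2 were under 1 CPM. The summed level of neural markers was 61.5 to 69.8 CPM under the label and 101 to 152 CPM in WT pLV2 without DOX, with Tubb3 and Ncam1 called lower than both lines, Nes (0.22 and -0.60), Map2 (0.30 and -0.39) and Sox1 (-0.22 and 1.08) not called in 1 direction against both, and Pax6, Dcx and Neurog2 under 1 CPM in all of these groups. Of the 12 pluripotency genes, Nanog, Esrrb, Klf4 and Tfcp2l1 were called lower than both lines. The other 8 were not called in 1 direction against both, among them Pou5f1 (-0.05 and 0.38), Sall4 (-0.23 and 0.46) and Dppa5a (0.08 and 1.27), and the summed level of all 12, 5411 to 5551 CPM, lay within the 5325 to 6337 CPM of the WT pLV2 libraries without DOX. The part of these shifts in the members' levels was not tested.

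The pathways around each member were read from lists of related genes, counting a gene only where it was called in the same direction against both WT lines, as 10.6% of all genes were lower and 11.1% higher without DOX. Over the 5 lists 11 genes were lower without DOX, and 4 with DESeq2 or 3 without replicate 2 under the label. Among 12 other genes of the ubiquitin hydrolase family and ubiquitin recycling, 2 were lower and 3 higher without DOX, and the medians of the list were -0.05 against line 1 and -0.02 against line 2. Uchl3, another hydrolase of the Uchl1 family, differed in the other direction. It stood at 161 and 155 CPM under the label without DOX, at 42.2 and 38.5 CPM in line 1 and at 57.1 and 54.1 CPM in line 2, with log2 differences of 1.97 ± 0.07 (adjusted p = 4.1e-12) and 1.51 ± 0.06 (adjusted p = 2.7e-11). With DOX it was at 154 and 148 CPM under the label, 1.79 and 1.45 above the lines, and in TRIM33-KO without DOX it was at 52.8 and 56.7 CPM. A level above those of the WT libraries was also seen without the label, in DUXBL-KO replicate 2, at 130.3 CPM without and 122.2 CPM with DOX, while replicate 1 was at 58.2 and 58.0 CPM.

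Uchl4, a near-identical copy of Uchl3 with which it can share reads, was at 54 and 45 counts under the label without DOX, 10 and 12 counts in line 1 and 19 and 14 counts in line 2, so its call (1.99 ± 0.30 and 1.70 ± 0.28) is uncertain. Rps27a, which encodes ubiquitin fused to a ribosomal protein, was lower, at -0.43 and -0.79, though its call against line 1 was lost with DESeq2 (adjusted p = 0.081) and without either line 1 library (-0.40 and -0.35, adjusted p = 0.12 and 0.18) or replicate 2 under the label (-0.27, adjusted p = 0.27). Bap1 was the other lower gene, at -0.16 against both lines, and was not called against both with DESeq2 or median-of-ratios factors. The hydrolase family under the label was thus low in Uchl1, high in Uchl3, and for Uchl5 lower than line 2 (-0.34, adjusted p = 0.0066) but not than line 1 (0.19, adjusted p = 0.14).

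Of 21 other autophagy genes, 7 were lower and 1 was higher without DOX, and 2 were lower and 0 higher with DOX, with list medians of -0.03 and -0.10 without DOX. The count of lower genes without DOX did not hold: it was 2 with DESeq2, with no filter or without either labelled library, 3 without either line 1 library, line 2 replicate 2 or CT010467.1, and 4 with median-of-ratios factors, and Atg12 was the 1 gene called in each of these. Atg12, part of the conjugate that attaches ATG8 proteins to lipid, was lower by -0.53 and -0.46 on the log2 scale (adjusted p = 1.2e-04 and 2.0e-04). Map1lc3b, a member of the other ATG8 branch, was lower by -0.51 and -0.21, and Map1lc3a by -0.35 and -0.64, but the latter call against line 1 was lost under DESeq2 (adjusted p = 0.16) and on leaving out any of the 4 libraries (adjusted p = 0.12 to 0.27). Gabarap and Gabarapl2, which form the same ATG8 branch as Gabarapl1, were called in the same direction against both lines in neither condition, at 0.13 and -0.45 for Gabarap and at -0.33 and 0.10 for Gabarapl2. The remaining lower genes were Atg5, Ulk1, Sqstm1 and Nbr1, all within -0.61 to -0.20. Atg4c, a protease that trims ATG8 proteins, was higher by 0.39 and 0.32, and lost its calls with DESeq2 (adjusted p = 0.072 and 0.1) and without replicate 1 under the label (0.24 and 0.18, adjusted p = 0.28 and 0.38). Against line 1 it was also lost without either line 1 library (0.42 and 0.48, adjusted p = 0.083 and 0.055), and against line 2 without line 2 replicate 2 (0.24, adjusted p = 0.21).

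The AF4/FMR2 family and its elongation partners gave 2 lower and 1 higher of 18 genes without DOX, with medians of -0.04 and -0.02. Larp7, which holds the inhibitory 7SK ribonucleoprotein, was lower by -0.67 ± 0.09 and -0.64 ± 0.09 (adjusted p = 2.2e-05 and 1.2e-05). Eaf1, an elongation factor partner, was higher by 0.22 and 0.37, and its call against line 1 was lost without replicate 2 of line 1 (0.25, adjusted p = 0.082) or under the label (0.22, adjusted p = 0.081). No paralogue of Aff1 was called lower than both lines. Aff4 was at -0.08 (adjusted p = 0.44) and -0.71, and its labelled libraries, at 317 and 323 CPM, lay below all 4 WT pLV2 libraries, at 335 to 533 CPM. Aff3 was at 0.39 and -1.23, and Aff2 at -0.76 and 1.85.

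Around Rimklb, 10 of 11 genes of N-acetylaspartylglutamate and glutamate metabolism passed the filter, and Slc13a3 did not. None was called lower and 3 were called higher than both lines, at both conditions. These were Glul, glutamine synthetase, at 1.12 ± 0.10 and 0.72 ± 0.10 without DOX (adjusted p = 2.0e-07 and 1.0e-05), Glud1, glutamate dehydrogenase, at 0.55 and 0.95, and Got1, a transaminase, at 0.35 and 0.64. Rimkla, the other ligase of this family, was at 0.08 and -0.24 and called against neither line. Of the 16 glutaredoxin, thioredoxin and glutathione genes, 0 were lower and 2 higher without DOX and 3 higher with DOX. Txnrd1, thioredoxin reductase, was higher by 0.44 and 0.43 without DOX (adjusted p = 2.3e-04 and 1.6e-04) and by 0.62 and 0.57 with DOX. Gclc, the catalytic subunit of glutathione synthesis, was higher by 0.22 and 0.35 without DOX and by 0.45 and 0.79 with DOX. Its call against line 1 without DOX was lost without line 1 replicate 1 (0.23, adjusted p = 0.1) or replicate 2 under the label (0.23, adjusted p = 0.08). The other glutaredoxins Glrx, Glrx3 and Glrx5 were not called higher than both lines at either condition.

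**Figure D4:**
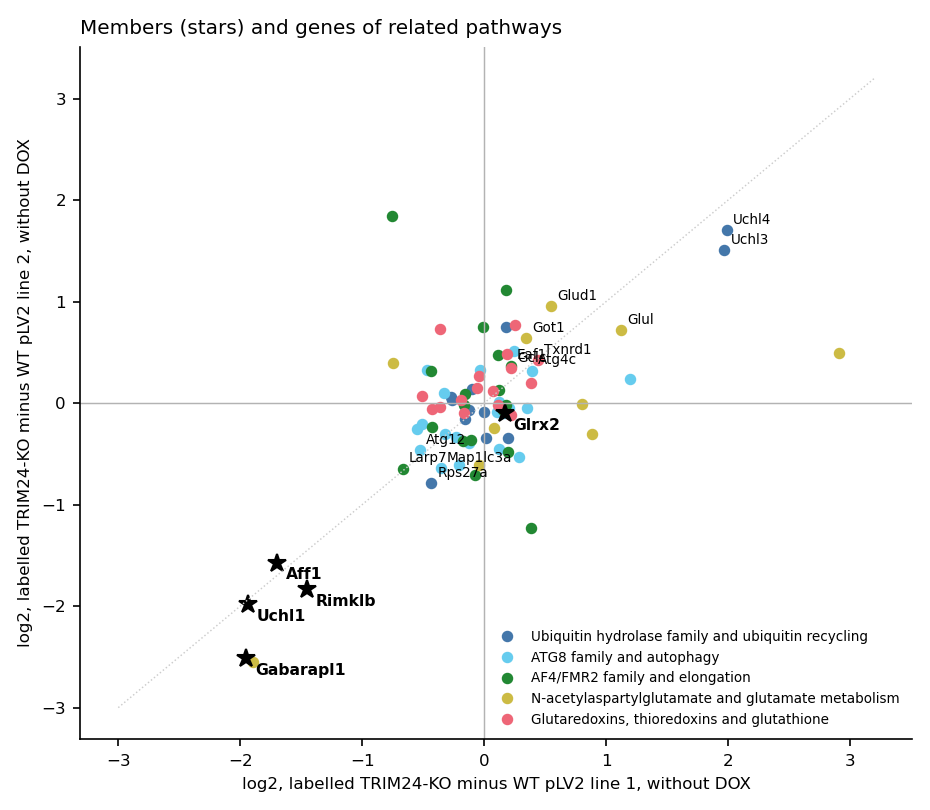
Log2 difference of libraries labelled TRIM24-KO from WT pLV2 line 1 (x axis) and line 2 (y axis) without DOX, for the 5 members (stars) and for genes of 5 related lists (coloured points, names for some of those chosen by the rule). Uchl3 and Uchl4 lie at the upper right, opposite Uchl1, and most other related genes lie within 1 of 0.

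The chromosomal neighbours of 4 members, 5 tested genes on each side, were counted in the same way. Around Uchl1, 1 of 10 was lower and 3 were higher than both lines without DOX, with Shisa3, 0.932 Mb away, higher by 3.09 and 1.84 and Chrna9 by 0.63 and 1.42. Around Gabarapl1, 2 were lower and 1 higher, among them Itfg2 at -0.68 and -0.54 and Smim10l1 at 1.05 and 0.47. Around Aff1, 1 was lower (Spp1, osteopontin, at -1.05 and -0.76) and 2 higher (among them Gpat3, at 1.16 and 1.91). Slc10a6, the next gene to Aff1 and named after its value was seen, stood at -2.20 ± 1.03 and -2.73 ± 0.92 (adjusted p = 0.14 and 0.023) and so was not called against line 1. The calls of Gpat3 against line 1 (0.78, adjusted p = 0.17) and of Smim10l1 against line 2 (0.34, adjusted p = 0.16) were lost without replicate 1 under the label. The call of Gpat3 against line 1 was also lost without line 1 replicate 1 (1.15, adjusted p = 0.065), and that of Smim10l1 against line 2 without line 2 replicate 2 (0.44, adjusted p = 0.067).

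Rimklb sits in the Nanog region, and 3 of its 10 neighbours were lower than both lines and 0 higher. A2m, a protease inhibitor gene 0.812 Mb away, was lower by -3.82 and -4.48 (adjusted p = 3.5e-09 and 1.7e-10). It stood at 2.95 and 5.75 CPM under the label without DOX and at 61.5 to 104.6 CPM in the WT pLV2 libraries, but also at 11.1 and 2.89 CPM in DUXBL-KO and 23.9 and 10.9 CPM in WT without DOX, which lack the label. Nanog, the pluripotency factor, was lower by -0.44 and -0.68 (adjusted p = 2.6e-04 and 1.2e-06), and Gdf3 by -0.33 and -0.82. M6pr and Phc1, the nearest neighbours on one side, were not called lower than both lines, at 0.11 and -0.75 and at -0.31 and -0.17.

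**Figure D5:**
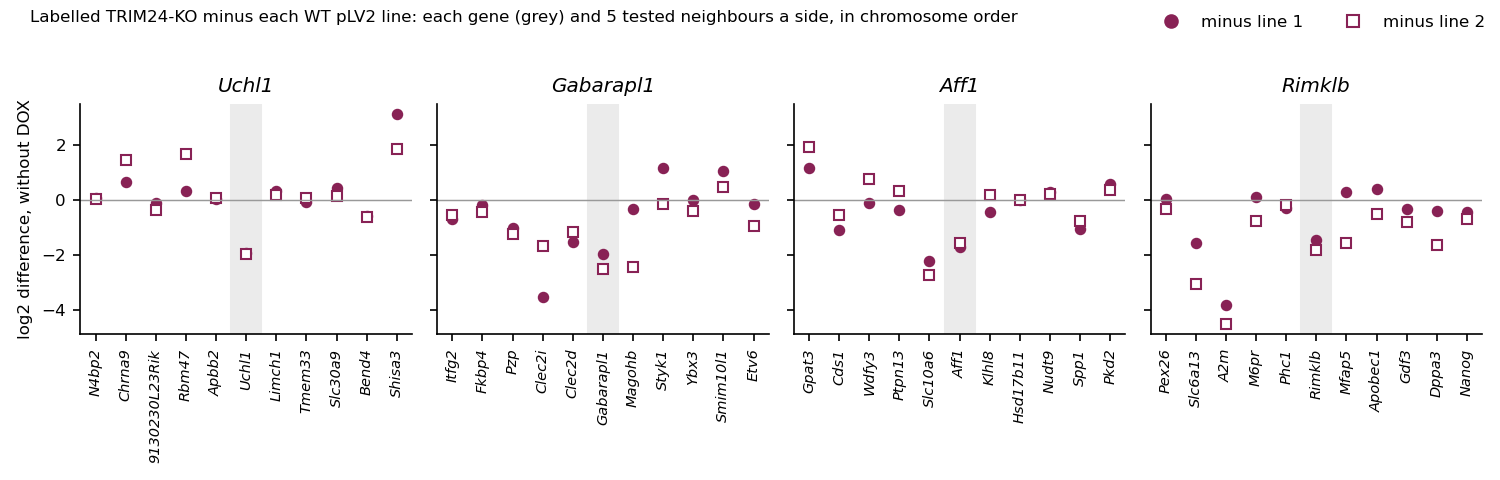
Log2 difference of libraries labelled TRIM24-KO from WT pLV2 line 1 (filled) and line 2 (open) without DOX (y axis) for 4 members (grey) and the 5 tested genes on each side in chromosome order (x axis). Uchl1 lies below all 10 of its neighbours, Slc10a6 lies below Aff1 beside it, and A2m is the lowest point near Rimklb at -3.82 and -4.48.

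Likeness between genes was described over the 16 pLV2 libraries, which share lines and treatment and include the 4 labelled libraries that chose the members and so carry the differences used in the choice. The Pearson r of log2 CPM was 0.95 between Uchl1 and Gabarapl1, 0.917 between Gabarapl1 and Aff1, 0.897 between Uchl1 and Aff1 and 0.826 between Rimklb and Glrx2, and it was 0.541, 0.427 and 0.16 for Rimklb and 0.00477, -0.145 and -0.404 for Glrx2 with Uchl1, Gabarapl1 and Aff1. The genes most like Uchl1 were Asxl1 (r = 0.973), Crtac1 (0.966) and Ipo5 (0.965). Over the 8 libraries of the other set, which lack the label, r with Uchl1 was 0.879 for Asxl1 but -0.879 for Ipo5. Most like Gabarapl1 were D030068K23Rik, Ubac2 and Fn1 (r of 0.98, 0.978 and 0.978), and most like Aff1 were Noc2l, Slc6a15 and Usp9x (0.988, 0.987 and 0.983). In the set without the label these were 0.461, -0.82 and 0.597 for Gabarapl1 and 0.366, 0.943 and 0.554 for Aff1, so Ubac2 turned sign as Ipo5 did.

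Most like Rimklb were Ddr2 (r = 0.987), Phkg2 (0.981) and Prps1 (0.976), and most like Glrx2 were Zfand2a (0.991), Gm11544 (0.987) and Gm48931 (0.986). Ddr2, a collagen receptor kinase, was at -2.21 and -2.83 under the label without DOX and with a DOX effect of 3.96 in line 1, 4.37 in line 2 and 6.13 under the label. Zfand2a, a stress-inducible zinc finger gene, had DOX effects of 1.75, 1.63 and 2.56 in the same order and no difference beyond 0.12 from either line without DOX. Over the 8 WT and DUXBL-KO libraries r was 0.744 for Ddr2 with Rimklb and 0.97 for Zfand2a with Glrx2.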

How the data were processed

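RNA was sequenced from 24 libraries as paired reads of 75 bases after rRNA depletion with a strand-specific kit, per the labels' protocols. The submitters' processing notes name bcl2fastq 2.20.0, cutadapt 1.18, STAR 2.7.6a and mm10; the counting tool, its annotation, its strand setting and its treatment of multiply mapped reads are not given in the sources used here. The authors deposited raw counts per gene and per repeat subfamily. Of these, 55487 genes were used, with symbols and positions from GENCODE M21 (GRCm38), while 1146 repeat subfamilies were left out.

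The pLV2 set (16 libraries, 11784696 to 19136869 gene counts each) and the WT and DUXBL-KO set (8 libraries) were fitted apart with edgeR 4.0.16 in R 4.3.3: TMM scaling, filterByExpr by group, quasi-likelihood F tests and Benjamini-Hochberg adjustment over all genes of a contrast, called at an adjusted p under 0.05. CPM are counts over the TMM-scaled library size, on the usual CPM scale, with TMM factors computed in each set apart. SE is the log2 difference divided by the square root of F. The scripts were tested on simulated data. The members and the lists of related genes, markers and motifs were chosen with earlier results of these data known, and the DOX-effect comparisons of TRIM33-KO were added after the first fits had been seen. No p is given for members in contrasts with the TRIM24-KO label, which chose them. Named related genes are, per list, up to 3 (neighbours 2) called in 1 direction against both WT lines without DOX with the largest smaller difference, and the most alike genes are the 3 with the highest Pearson r of log2 CPM. Other related genes and neighbours named here were chosen after their values were seen. Some related genes, markers and neighbours, the neighbours of Glrx2 among them, are not reported here. Alternatives were DESeq2 1.42.0, median-of-ratios factors, other filters, a replicate block, fits of only the compared groups, library sizes with repeats or without CT010467.1, and leaving out each library, which leaves its group with 1 library that is assumed to vary like the other groups, so those p-values rest on the spread of the other groups.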

Additional observations from a re-analysis of the deposited data

How the results depend on the processing

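With 2 libraries a group, single libraries set many counts of calls, and low counts limit Uchl4 and the fainter neighbours. Of the alternative values for members, 871 kept their direction and side of the threshold or, where untested, moved by less than the replicate spread (the SDs of log2 CPM between the 2 libraries of each compared group, combined as the root of their summed squares, not the SE of the fit), 27 lost a call, 6 gained one, 6 tested ones turned direction and 18 untested ones moved by more than that spread; the cause was not tested. The 6 tested turns were of DOX effects that were not called: Gabarapl1 in line 1 was 0.00234 with no filter, 0.000613 without CT010467.1, 0.00652 with only the compared groups and -0.045 to 0.0439 on leaving out libraries, Uchl1 was -0.0397 to 0.0598 in line 2 and -0.11 to 0.27 in TRIM33-KO. Among untested values, on leaving out libraries, Glrx2 of the label against line 2 without DOX ran from -0.20 to 0.0902, and the DOX effect of Aff1 under the label from -0.14 to 0.11 against line 1, where other settings turned it too, and from -0.0188 to 0.25 against line 2.

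Genes called moved as follows, where counts for the DOX effect of the TRIM24-KO label are of larger effects only. With only the compared groups, DOX in line 2 gave 2725, DOX in WT 1 (1685 at an unadjusted p under 0.05), DUXBL-KO against WT 0 without DOX (1257 unadjusted) and 1 with DOX (1478 unadjusted), and the DOX-effect comparisons 649 (TRIM33-KO and line 1), 1 (TRIM33-KO and line 2) and 3 (TRIM24-KO label and line 2). With no filter, TRIM33-KO against line 2 gave 649 without and 1144 with DOX, DOX in WT 1110 and in DUXBL-KO 1540, DUXBL-KO against WT 586 and 908, and the DOX-effect comparisons 247 (line 2 and line 1), 734 and 74 (TRIM33-KO and lines 1 and 2) and 126 and 176 (TRIM24-KO label and lines 1 and 2). DESeq2 gave 112, 438, 16 and 61 for the first 4 of these, and 177 and 172 for DUXBL-KO against WT; median-of-ratios factors gave 25 for the TRIM24-KO label and line 2.

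Replicate numbers were shared by groups, with correlations of -0.0467 to 0.195 in the pLV2 set and 0.255 to 0.549 in the other, over 2 numbers a group. With the replicate block, DOX in WT gave 961 genes and DOX in DUXBL-KO 1594, with 2 members each, and DUXBL-KO against WT gave 440 without DOX, with 1 member, and 485 with DOX; Rimklb was called with the block in WT (1.06, adjusted p = 0.0045) and DUXBL-KO (1.75, adjusted p = 2.5e-04). Members called were 1 for line 2 against line 1 with DOX with DESeq2 or median-of-ratios factors, 2 with no filter for DOX in WT, DOX in DUXBL-KO and DUXBL-KO against WT at both conditions, and 0 for DOX in WT with only the compared groups. Related genes lower than both lines without DOX were 4 with DESeq2, 7 with median-of-ratios factors, 5 with no filter and 6 without CT010467.1, and neighbours higher with DOX were 2 with DESeq2 or only the compared groups. Counts of neighbours in this section are over all 5 members, Glrx2 included, and not the 4 counted above.

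Leaving out each library gave ranges of genes called of 1574 to 1947 (DOX in line 1), 2933 to 4038 (line 2), 4392 to 5159 (TRIM33-KO), 2 to 635 (WT) and 496 to 563 (DUXBL-KO), 131 to 312 and 124 to 549 (TRIM33-KO against line 2 without and with DOX), 0 by edgeR in every case for DUXBL-KO against WT (1008 to 1854 at an unadjusted p under 0.05 without DOX and 1046 to 1718 with DOX), 9 to 77 (DOX effects of line 2 and line 1), 117 to 240 and 0 to 5 (TRIM33-KO and lines 1 and 2), 4 to 52 and 22 to 62 (TRIM24-KO label and lines 1 and 2), and 1120 to 1634 and 915 to 1273 (lower than both lines under the label without and with DOX). Members called ranged from 2 to 4 and from 0 to 2 (TRIM33-KO against lines 1 and 2 with DOX), 0 to 1 (line 2 against line 1 with DOX) and 0 to 1 (DOX in WT). Related genes lower than both lines ranged from 3 to 10 without DOX and from 2 to 4 with DOX, and neighbours from 5 to 9 lower and 2 to 6 higher without DOX and 1 to 4 higher with DOX.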
